A study of Mus musculus with 6 samples.

Results

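The genes described here encode the factors that start, extend and end protein synthesis and the aminoacyl-tRNA synthetases that load transfer RNAs. They were chosen by gene symbol alone, as the protein-coding genes whose symbol begins with EIF, EEF, GSPT, FARS, EPRS or AIMP, is ETF1, or has the form of a synthetase name such as AARS or VARS2. The rule found 37 of the 4195 genes in the deposited table. They fell into 16 initiation factors, 3 regulators of initiation, the exon junction complex gene EIF4A3, 6 genes of elongation, 9 cytosolic synthetases with their scaffold, and 2 mitochondrial synthetases.

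The RNA was that of KYSE30, a human line established from squamous carcinoma of the esophagus and labelled wild type. One group had received 100 uM acetylcholine (ACh), the transmitter that signals via nicotinic and muscarinic receptors, and the other was its Control, each for 4 h with 3 libraries. The question was which transcripts differ after stimulation, and for this gene set whether initiation, elongation and synthetase genes moved together. Both groups are the same single cell line, and no label states that replicates came from separate cultures, so p-values reflect only the spread between these libraries, which may be technical.

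A ribosome starts when initiation factors bring the initiator transfer RNA, as a complex with eIF2 and GTP, to the small subunit, load it onto a capped messenger RNA through eIF4 and eIF3, and find the start codon. Elongation factors then deliver charged transfer RNAs (eEF1) and move the ribosome along (eEF2). Synthetases supply those charged transfer RNAs, and several of them sit in one large cytosolic assembly, the multisynthetase complex. Phosphorylation of eIF2, of the cap-binding inhibitor 4E-BP1 and of eEF2 sets the rate of protein synthesis in response to stress, growth signals and calcium.

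The table gives normalised read counts, that is, reads per gene divided by one factor per library by the authors. It lists only genes with an unadjusted p under 0.05 in the authors' own test, so a translation gene that is missing from it has no value here and cannot be called unchanged. Normalised reads over the listed genes totalled 10519515 to 10681118 in ACh libraries and 11097307 to 11468978 in Control libraries. The true depth of sequencing is unknown. Of 14 markers of basal squamous cells 8 were listed, TP63 and SOX2 among them, with summed counts of 86445 to 87991 in ACh libraries and 84624 to 87717 in Control libraries. Of the fibroblast, endothelial and leukocyte markers, 1 each was listed (COL1A1, EGFL7 and LAPTM5), at summed counts of 133 to 147, 818 to 970 and 31.1 to 48.2 in ACh libraries and of 146 to 193, 1052 to 1081 and 17.7 to 21.3 in Control libraries. COL1A1 ran lower with a slight overlap, EGFL7 was lower and LAPTM5 was higher in every ACh library. Their part in the results was not tested.

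Of the 37 genes, 15 rose in ACh, 16 fell and 6 did not pass. A gene is said to rise or fall when it passed 0.05 both in limma, a linear model with a moderated spread fitted over the whole table with Benjamini-Hochberg adjustment, and by the adjusted p of the authors' deposited table. That is 40.5% higher and 43.2% lower, against 28.8% higher and 35% lower among all listed genes by the same call. These genes also drew more reads than most, with a median count of 3090 over all libraries against 1194 for the table, so the shares are given as a description. The changes were small, with a median of 12.6% among the 31 called members and of 16% among all called genes, taking the lower group as the base. Limma alone called all 37 and 99.6% of the table (48% higher and 51.6% lower), which follows from how the table was selected. On the same base 7 called members changed by at least 15%, with EIF2A higher and EEF1A2, EIF5A, EEF1D, EIF3C, FARSA and VARS lower, 1 and 6 of 37, against 17.2% higher and 19.2% lower in the table. Since counts are relative to each library, a lower share of a transcript and less RNA per cell cannot be told apart.

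**Figure D1:**
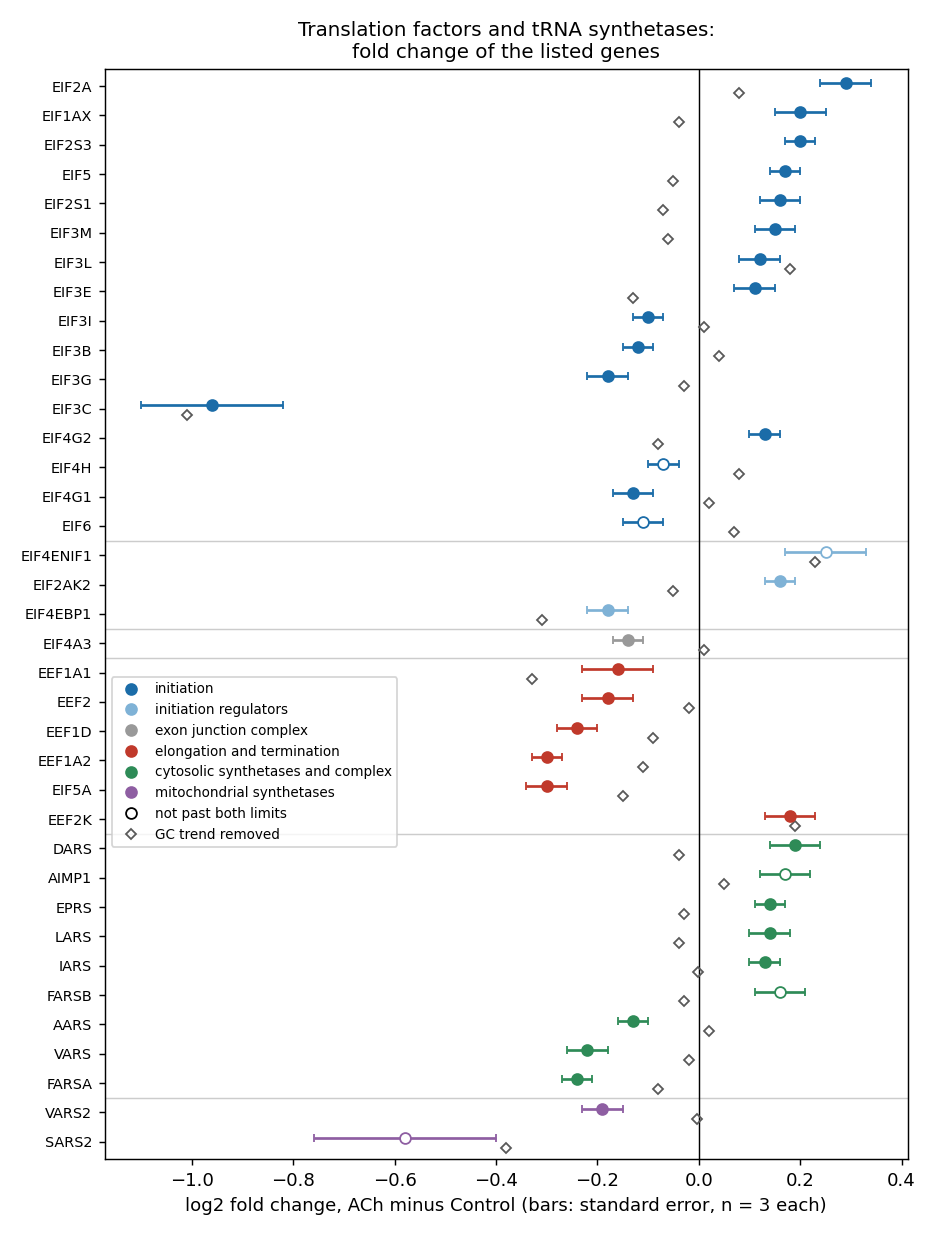
Log2 fold change of each of the 37 genes (ACh minus Control, horizontal axis), with its standard error, grouped and coloured by role. Filled circles passed both limits, open circles did not, and grey diamonds give the value after the trend with GC content was removed. The 5 elongation factors lie left of 0 and the 5 genes of start codon recognition lie right of it, between 0.16 and 0.29.

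Genes that bring the initiator transfer RNA to the start codon rose together. All 5 that were listed rose, by log2 fold changes of 0.16 to 0.29, and in all 5 the lowest ACh library lay above the highest Control library. Among all listed genes 28.8% rose, 44.6% showed such a gap upwards and 48.3% showed one downwards. The gap itself is thus common in a table selected for differences. This subgroup was not among the classes planned for counting, and of all 16 initiation factors 9 rose and 5 fell. With the trend with GC content removed, as described further on, 0 of the 4 start codon genes with a GC value kept their calls. Over all listed genes 13.8% of calls were kept. Of these 4 genes 3 turned negative (EIF2S1 at -0.07, EIF5 at -0.05 and EIF1AX at -0.04).

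EIF2A, whose product is a factor apart from eIF2 that can also carry initiator transfer RNA, changed most of the 5. Its normalised counts were 1769, 1831 and 1582 in ACh libraries, against 1434, 1428 and 1369 in Control libraries. The log2 fold change was 0.29 with a standard error of 0.05 (adjusted p = 6.95e-05 by limma). The gene (ENSG00000144895) lies on chromosome 3 from 150546678 to 150584242, as the file gives it, in a human build that is not given in the sources used here.

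Of the eIF2 heterotrimer, the alpha and gamma subunits were listed. EIF2S3, the gamma subunit that binds GTP and the initiator transfer RNA, had 3153, 3175 and 3091 counts in ACh libraries, against 2750, 2683 and 2793 in Control libraries. EIF2S1, the alpha subunit and the site of stress-induced phosphorylation, had 2725, 2566 and 2411 in ACh libraries, against 2345, 2328 and 2217 in Control libraries. Their log2 fold changes were 0.20 and 0.16, and for EIF2S1 the lowest ACh library lay only slightly above the highest Control library. EIF5 (ENSG00000100664, chromosome 14 from 103333544 to 103345025), which stimulates GTP hydrolysis by eIF2 at the start codon, averaged 4309 ± 118 in ACh and 3828 ± 59.6 in Control (SD, n = 3 each). EIF1AX, a scanning factor encoded on the X chromosome, averaged 1415 ± 53.2 in ACh and 1237 ± 108 in Control. EIF1AX and EIF2S3 have close relatives elsewhere in the genome, which makes their counts less certain.

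The subunits of eIF3, the largest initiation factor, did not move as one. Of 7 listed subunits, 3 rose and 4 fell. Among all listed genes 28.8% rose and 35% fell, so calls in both directions are common in the table. EIF3E, EIF3L and EIF3M belong to the octameric core of PCI and MPN subunits, and they rose by 0.11, 0.12 and 0.15 on the log2 scale. EIF3B, EIF3G and EIF3I form the peripheral module that is also found in yeast, and they fell by 0.12, 0.18 and 0.10 on the log2 scale.

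EIF3B, the scaffold of the peripheral module, had 11201, 11483 and 11304 counts in ACh libraries, against 12152, 12436 and 12220 in Control libraries. EIF3G, which carries an RNA recognition motif, had 2412, 2549 and 2381 in ACh libraries, against 2774, 2783 and 2753 in Control libraries. In both genes every ACh library lay below every Control library. EIF3M had 2875, 2924 and 2664 in ACh libraries, against 2610, 2486 and 2538 in Control libraries, again without overlap but in the other direction. EIF3L had 2181, 2220 and 2215 in ACh libraries, against 2034, 1993 and 2053 in Control libraries. EIF3I had 7070, 7032 and 6691 in ACh libraries, against 7313, 7612 and 7366 in Control libraries, which was the smallest change of a called member. EIF3E was the one member of the 37 whose groups overlapped, with 8114, 8047 and 7491 in ACh libraries, against 7266, 7579 and 7098 in Control libraries. Its limma call was lost without ACh replicate 1 or without Control replicate 3, each with a log2 fold change of 0.09.

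The ratio of EIF3B to EIF3E within a library does not depend on how libraries were scaled. It was 1.38, 1.43 and 1.51 in ACh libraries, against 1.67, 1.64 and 1.72 in Control libraries, a difference of -14.3%. The groups were fully apart, and an exact permutation test (two-sided) gave p = 0.1, the smallest that 3 against 3 libraries allow. Scaling aside, the ratio is not free of base composition, since with the GC trend removed EIF3B stood at 0.04 and EIF3E at -0.13, the opposite order. Such ratios were taken for 6 pairs picked after their values were seen. Of the pairs not described elsewhere, EEF1A2 to EEF1A1 was 0.0319 ± 0.00067 in ACh and 0.0351 ± 0.0017 in Control (exact permutation p = 0.1), and EIF4EBP1 to EIF4G1 was 0.058 ± 0.0019 in ACh and 0.06 ± 0.0011 in Control (exact permutation p = 0.3; SD, n = 3 each). With the GC trend removed EEF1A2 stood at -0.11 and EEF1A1 at -0.33, the opposite order. EIF4EBP1 at -0.31 and EIF4G1 at 0.02 then kept their order.

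EIF3C, a further core subunit, showed the largest change of all called members, and it is the least certain. Its counts were 313, 277 and 351 in ACh libraries, against 708, 419 and 752 in Control libraries. The ACh libraries were all lower, and Control replicate 2 stood well below the other two. The log2 fold change was -0.96 with a standard error of 0.14 (adjusted p = 2.2e-05 by limma), and leaving out each library in turn gave -1.22 to -0.80. At 44.9 normalised reads per kb of gene length in ACh and 89.7 in Control it lay far under the other eIF3 subunits, of which the lowest, EIF3M, had 380 in ACh and 343 in Control. EIF3C (ENSG00000184110, chromosome 16 from 28688558 to 28735730) has a near-identical neighbouring copy, EIF3CL, with which reads can be shared.

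The eIF4 genes were divided too. EIF4G1, the scaffold that joins the cap to the ribosome, fell, with 26641, 27043 and 28198 counts in ACh libraries, against 29441, 30200 and 29815 in Control libraries (log2 fold change of -0.13). EIF4G2, also called DAP5, a related scaffold that lacks the site for the cap-binding protein, rose. It had 13903, 14032 and 13829 in ACh libraries, against 12720, 12902 and 12456 in Control libraries (log2 fold change of 0.13). The EIF4G1 to EIF4G2 ratio within a library was 1.96 ± 0.068 in ACh and 2.35 ± 0.04 in Control (SD, n = 3 each). That is a difference of -16.5% with the groups fully apart (exact permutation test, two-sided, p = 0.1). This outcome was fixed in advance, since neither gene overlapped between groups and the 2 went opposite ways. With the GC trend removed both calls were lost and the order turned, with EIF4G1 at 0.02 and EIF4G2 at -0.08. EIF4H, an RNA-binding helper of the helicase eIF4A, averaged 10744 in ACh and 11310 in Control and did not pass. Nor did EIF6, which keeps the ribosomal subunits apart, at 3623 ± 63.8 in ACh and 3914 ± 200 in Control (SD, n = 3 each). The authors' deposited table gave it an adjusted p of 0.05001, at the edge of the limit, while EIF3L, just inside it, had 0.0476.

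Among the regulators of initiation, the kinase and the cap-binding inhibitor moved in opposite directions. EIF2AK2, the RNA-activated kinase PKR that phosphorylates eIF2 alpha, rose by 0.16 on the log2 scale. Its counts were 3651, 3730 and 3702 in ACh libraries, against 3373, 3272 and 3270 in Control libraries. EIF4EBP1, which encodes 4E-BP1, fell by 0.18 on the log2 scale. It had 1572, 1602 and 1575 in ACh libraries, against 1800, 1808 and 1757 in Control libraries. In both the spread within a group was small beside the gap between groups. With the GC trend removed EIF4EBP1 kept its call at -0.31, while EIF2AK2 lost its call and turned to -0.05, so the opposition was no longer seen. No other eIF2 kinase or 4E-BP gene was in the table. EIF4ENIF1, a transporter of the cap-binding protein, had 453, 433 and 455 in ACh libraries, against 391, 334 and 405 in Control libraries, and did not pass (0.0751 in the authors' deposited table). EIF4A3, which resembles the initiation helicase but serves the exon junction complex on spliced messenger RNA, fell, with 4898 ± 111 in ACh and 5390 ± 128 in Control (SD, n = 3 each).

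**Figure D2:**
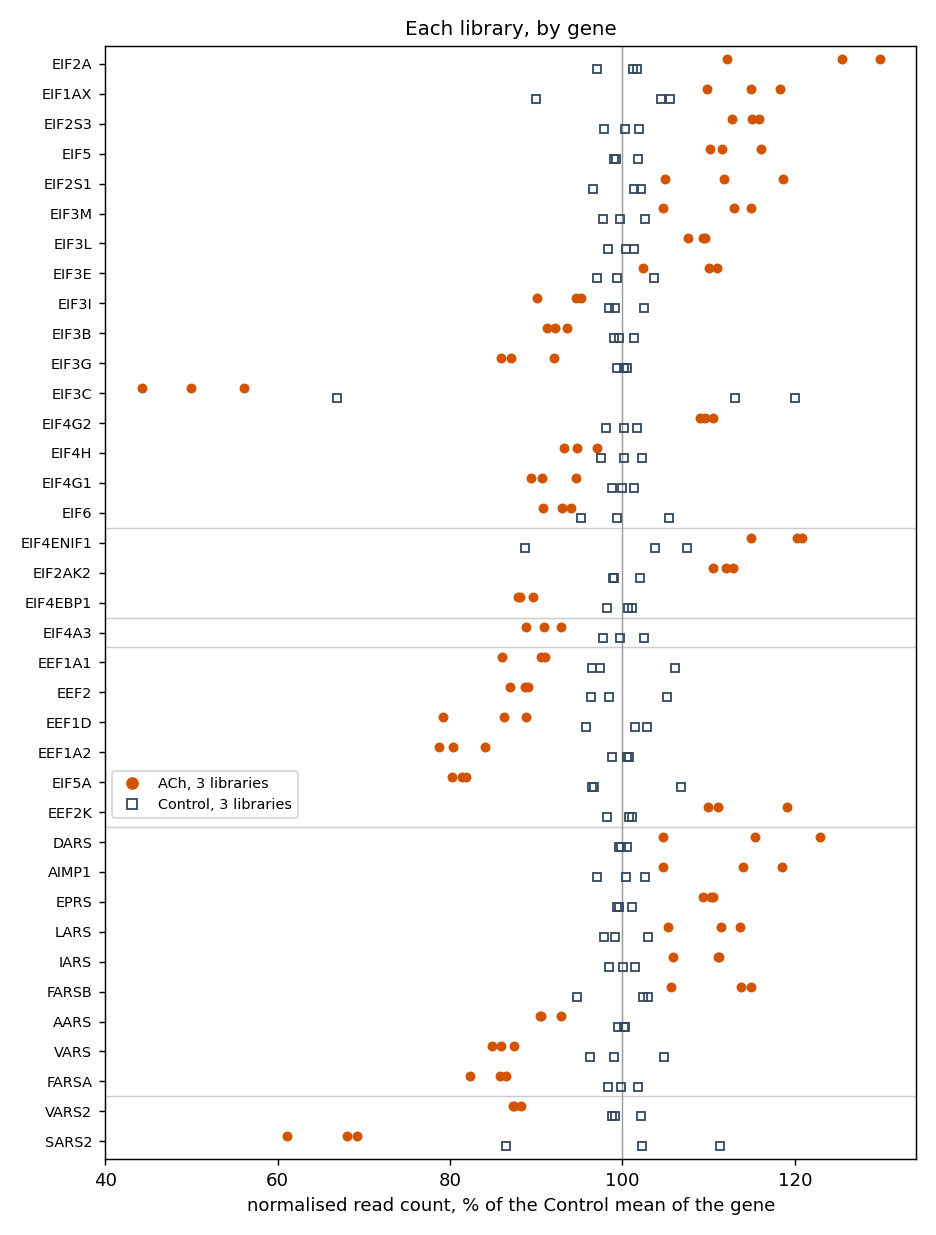
Normalised read count of each gene in each library, as a percentage of that gene's Control mean (horizontal axis). Filled circles are the 3 ACh libraries and open squares the 3 Control libraries. EIF3C falls furthest and its Control libraries are spread most widely, and EIF3E is the gene whose groups overlap.

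All 5 listed elongation factors fell in ACh, by 0.16 to 0.30 on the log2 scale, and each ACh library lay below each Control library for all 5. Among all listed genes 35% fell and 48.3% showed such a gap downwards. The median log2 fold change of these 5 was -0.24, against -0.10 over all listed genes. With the GC trend removed 3 of the 5 kept their calls (EEF1A1, EEF1A2 and EIF5A), against 13.8% of calls over all listed genes. The 5 genes had a median count of 14138, against 1194 over all listed genes. No release factor gene of the set was in the table.

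EEF1A2, the tissue-restricted form of the factor that delivers charged transfer RNAs, and EIF5A, the hypusine-bearing factor that helps ribosomes through difficult peptide bonds, changed most. EEF1A2 (ENSG00000101210, chromosome 20 from 63488012 to 63499322) had 5287, 5048 and 4946 counts in ACh libraries, against 6210, 6317 and 6333 in Control libraries. Its log2 fold change was -0.30 with a standard error of 0.03 (adjusted p = 9.71e-07 by limma). EIF5A (ENSG00000132507, chromosome 17 from 7306999 to 7312463) had 12778, 12707 and 12525 in ACh libraries, against 15086, 16673 and 15060 in Control libraries. Its log2 fold change was -0.30 with a standard error of 0.04 (adjusted p = 5.83e-06 by limma). By the authors' deposited p-values these genes stood 35th (EEF1A2) and 39th (EIF5A) of the 4195, the highest places among the 37.

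EEF1A1, the widely expressed form, was the most abundant member per length. It had 163188, 162271 and 154176 counts in ACh libraries, against 174621, 190305 and 173019 in Control libraries. The log2 fold change was -0.16 with a standard error of 0.07 (adjusted p = 0.0312 by limma). This call was the least stable of the elongation group, since limma lost it without any one of the ACh libraries (-0.18, -0.18 and -0.14) and with adjustment over 11193 tests. EEF1A1 has many processed pseudogenes, which can share its reads. Per kb of gene length it reached 26879 ± 834 normalised reads in ACh and 30147 ± 1606 in Control, and EEF1A2 reached 1037 ± 35.6 in ACh and 1280 ± 13.6 in Control (SD, n = 3 each).

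EEF2, the translocase, had 50641, 51855 and 51611 counts in ACh libraries, against 56102, 61218 and 57338 in Control libraries (log2 fold change of -0.18). EEF1D, the delta subunit of the exchange factor that reloads eEF1A with GTP, had 2648, 2970 and 2884 in ACh libraries, against 3202, 3440 and 3394 in Control libraries (-0.24). EEF2K, the calcium- and calmodulin-dependent kinase that inactivates eEF2, went the other way and rose. It had 1051, 1040 and 1127 in ACh libraries, against 929, 956 and 953 in Control libraries (0.18, limma adjusted p = 0.00315). The ratio of EEF2 to EEF2K transcripts was 48.2, 49.9 and 45.8 in ACh libraries, against 60.4, 64 and 60.2 in Control libraries. The difference was -22.1% with no overlap (exact permutation test, two-sided, p = 0.1). EEF2 was lower and EEF2K higher in every ACh library, so this separation and p were fixed in advance. Levels of protein or phosphorylation were not measured.

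**Figure D3:**
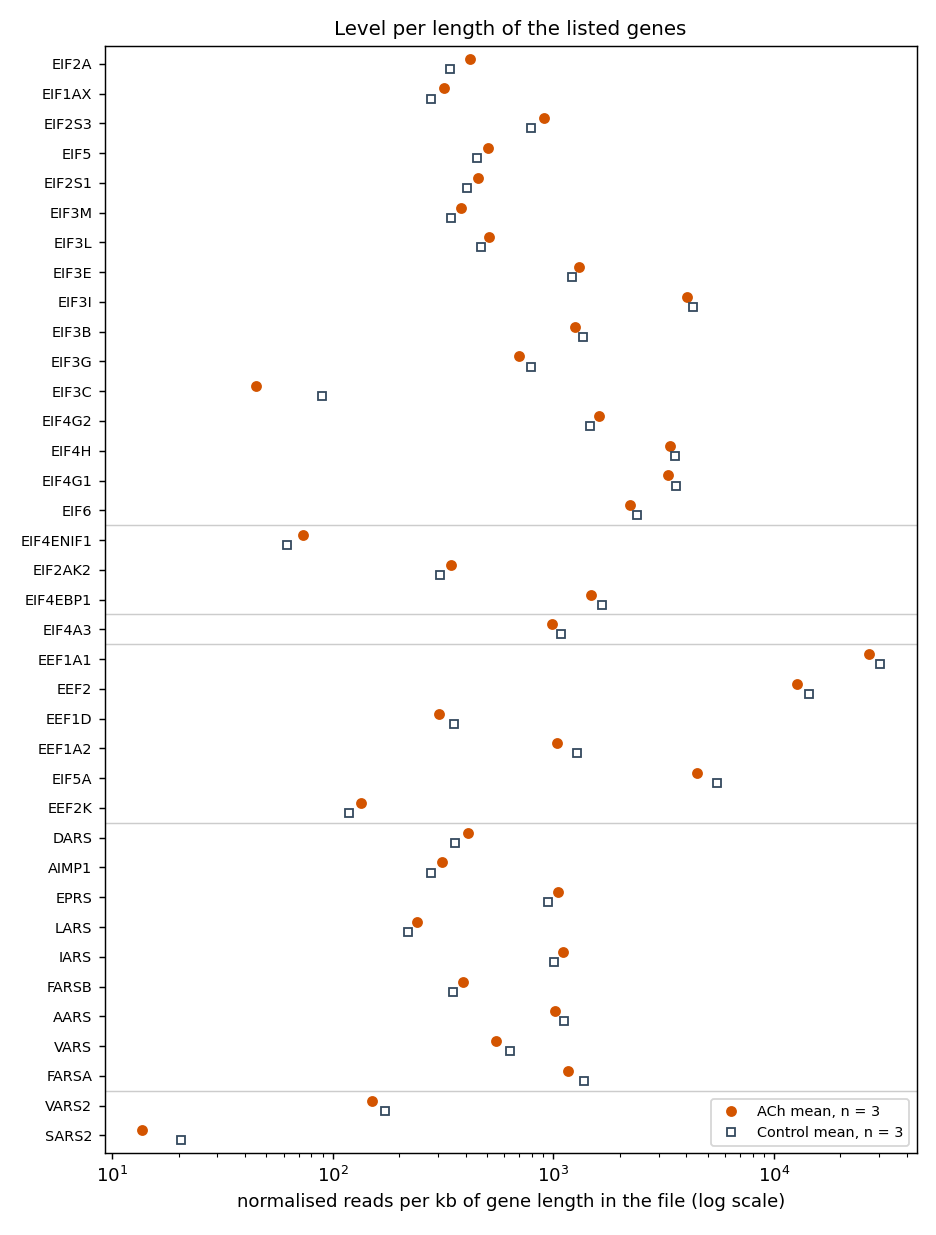
Mean level of each gene per kb of the gene length in the file (normalised reads per kb, log axis), ACh as filled circles and Control as open squares, n = 3 libraries each. EEF1A1 and EEF2 are the most abundant per length, and SARS2 the least (13.6 in ACh, 20.6 in Control).

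The called cytosolic synthetases divided by whether the enzyme sits in the multisynthetase complex. Of 5 listed parts of the complex 4 rose and 1 did not pass, and of 4 listed genes outside it 3 fell and 1 did not pass. The latter, FARSB, was higher in every ACh library (0.16), against the division. Among all listed genes 28.8% rose and 35% fell. The median log2 fold change was 0.14 inside the complex and -0.17 outside it, against -0.10 over all listed genes. The division was noticed after the values were seen, it rests on few genes, and the base composition of the 2 groups differed as described further on.

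EPRS, the fused glutamyl- and prolyl-tRNA synthetase, had 5710, 5720 and 5658 counts in ACh libraries, against 5144, 5154 and 5231 in Control libraries. IARS, for isoleucine, had 8286, 8282 and 7889 in ACh libraries, against 7458, 7565 and 7336 in Control libraries. DARS, for aspartate, had 1663, 1772 and 1509 in ACh libraries, against 1440, 1449 and 1437 in Control libraries. These 3 genes rose, by 0.14, 0.13 and 0.19 on the log2 scale, with the ACh libraries of DARS spread the most. LARS, for leucine and also a leucine sensor of the mTORC1 pathway, averaged 1954 ± 76.7 in ACh and 1774 ± 47.8 in Control (SD, n = 3 each) and rose by 0.14. AIMP1, a scaffold protein of the complex, averaged 1044 ± 65.5 in ACh and 929 ± 26.2 in Control (SD, n = 3 each). It did not pass, since the authors' deposited table gave it an adjusted p of 0.0634.

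Outside the complex, FARSA, the alpha subunit of phenylalanyl-tRNA synthetase, had 2892, 2869 and 2750 counts in ACh libraries, against 3287, 3401 and 3338 in Control libraries. Its log2 fold change was -0.24 with a standard error of 0.03 (adjusted p = 1.74e-05 by limma). FARSB, the beta subunit of the same enzyme, had 1346, 1360 and 1250 in ACh libraries, against 1211, 1218 and 1120 in Control libraries. FARSB had a log2 fold change of 0.16 and did not pass, with 0.0554 in the authors' deposited table. The enzyme holds both subunits in equal number, and the ratio of their transcripts, FARSA to FARSB, was 2.15, 2.11 and 2.20 in ACh libraries, against 2.71, 2.79 and 2.98 in Control libraries. The difference was -23.9%, without overlap (exact permutation test, two-sided, p = 0.1). FARSA was lower and FARSB higher in every ACh library than in every Control library. The separation of the ratio and its p were thus fixed in advance and add no support. With the GC trend removed FARSA stood at -0.08 and FARSB at -0.03, neither past the limits.

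VARS, for valine, whose enzyme associates with the eEF1 complex, fell by 0.22 on the log2 scale, with 3287, 3385 and 3328 counts in ACh libraries, against 3727, 4060 and 3837 in Control libraries. AARS, for alanine, fell by 0.13 on the log2 scale, with 4673, 4552 and 4556 in ACh libraries, against 5046, 5007 and 5051 in Control libraries. Of the mitochondrial enzymes, VARS2, the valine enzyme of that compartment, fell by 0.19 on the log2 scale, with 1269, 1272 and 1283 in ACh libraries, against 1441, 1486 and 1436 in Control libraries. The valine enzymes of both compartments were thus lower in every ACh library, as were 48.3% of all listed genes. With the GC trend removed VARS stood at -0.02 and VARS2 at -0.0028, neither past the limits. SARS2, the mitochondrial serine enzyme, had 40.7, 45.3 and 46.1 counts in ACh libraries, against 68.1, 74.1 and 57.6 in Control libraries. Its adjusted p in the authors' deposited table is exactly 1, as for 234 low genes of the table, so it could not pass and its failure to pass is no result.

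The direction of change ran with base composition. GC content was that of the mouse gene bearing the same symbol, which existed for 36 of the 37 genes (not for EIF2S3), because no human sequence was used here. Across these 36 genes Spearman's rho between GC content and log2 fold change was -0.74, and across the 3676 listed genes with a value it was -0.76. Genes share libraries and are not independent replicates, so these are descriptions. Members that rose had GC contents of 39.7% to 51.5% (median 43.7%), and members that fell had 47.4% to 60.9% (median 55.8%). The multisynthetase complex spanned 41.2% to 48.6%, and the 4 synthetase genes outside it spanned 46.3% to 60.9%. Inside eIF3, EIF3E and EIF3M, which rose, had 40.3% and 44.4%, and EIF3B, EIF3G and EIF3I, which fell, had 55.9%, 55.8% and 52.9%. EIF3L, which rose, had 51.5%, and EIF3C, which fell, had 49.6%, the other way round. FARSA had 56.6% and FARSB 46.3%. Level and length were less closely tied to direction, with rho of -0.29 for the mean count and 0.12 for gene length across the 37. Over all 4195 listed genes rho was -0.12 for the mean count and 0.34 for gene length.

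**Figure D4:**
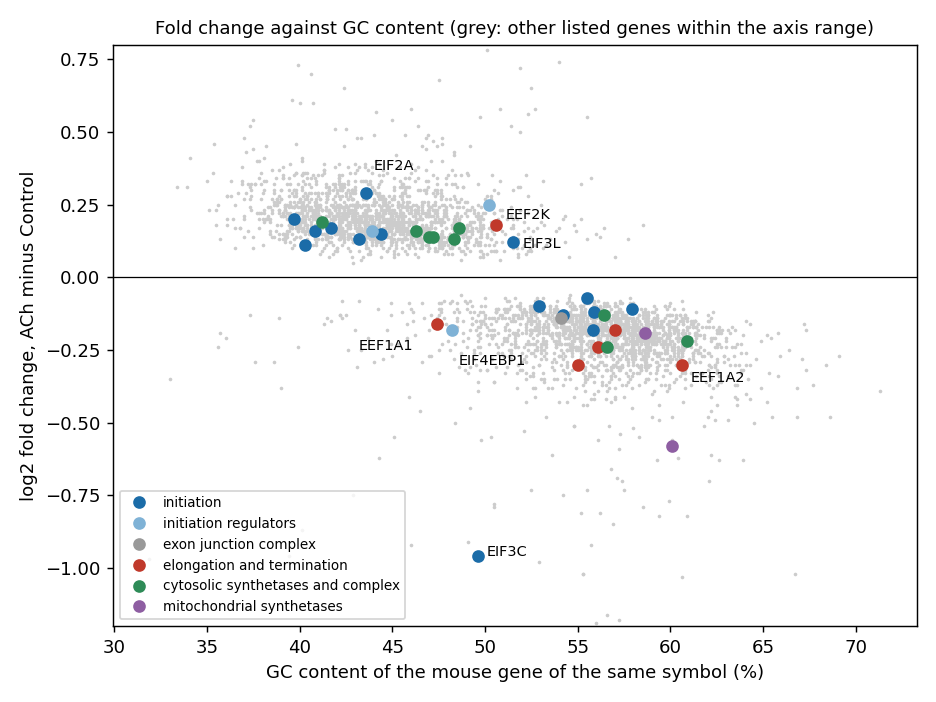
Log2 fold change (ACh minus Control, vertical axis) against GC content, taken from the mouse gene with that symbol (horizontal axis, %), for the 36 members with a value in colour and the other listed genes in grey. Low-GC genes lie above 0 and high-GC genes below it. EEF1A1, EIF4EBP1 and EIF3C lie below 0 and EEF2K and EIF3L above it, although their GC contents of 47.4% to 51.5% are in the middle of the range.

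When local regression took the GC trend out of each library, 7 of the 30 members with a call and a GC value kept both call and direction (23.3%), against 339 of 2460 over all listed genes (13.8%). These were EEF1A1 (-0.33), EEF1A2 (-0.11), EIF5A (-0.15), EIF4EBP1 (-0.31) and EIF3C (-1.01), which were lower in ACh, and EEF2K (0.19) and EIF3L (0.18), which were higher. In this fit limma and the authors' limit together called 9.82% of the 3676 genes, 2.97% higher and 6.86% lower. Of the 6 elongation genes 4 kept their call, while 2 of 13 called initiation genes did. None of the 4 start codon genes with a GC value kept its call by limma, at an adjusted or an unadjusted p under 0.05. Of 7 called cytosolic synthetase genes 0 kept theirs by limma, and 1 had an unadjusted p under 0.05 in the same direction, FARSA (adjusted p = 0.136 by limma). Of the calls, 16 changed sign, to values between -0.13 and 0.04. EIF3E passed in the opposite direction, at -0.13 (limma adjusted p = 0.0126). EEF2 and VARS then stood at -0.02 each, EEF1D at -0.09, FARSA at -0.08 and EIF2A at 0.08. The split between synthetases inside and outside the complex was not seen on this scale, with medians of -0.03 and -0.02. The mouse GC content only approximates that of the human transcripts. The trend was fitted on listed genes alone, all selected for differences, so its size over all expressed genes is unknown. Its removal may take out too much, so lost calls and turned signs are descriptions of this fit.

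The scaling of the libraries mattered less, but it moved the balance of the calls. At the authors' scaling 48.4% of the called members were higher in ACh, and with libraries scaled to equal totals over the listed genes 60% were, because 10 rather than 16 members fell. EEF1A1, EIF3B, EIF3I, EIF4G1, AARS and EIF4A3 then lost their calls, with log2 fold changes of -0.08, -0.03, -0.02, -0.05, -0.05 and -0.06. EEF1A2, EIF5A, EEF2, EEF1D and the 15 members that rose passed under both scalings. The same change of scale moved the share of higher genes among all calls from 45.1% at the authors' scaling to 54.9% at equal totals.

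Genes next to these in the pathway went both ways. For scale, 28.8% of all listed genes rose and 35% fell. Of 27 other messenger-binding and recycling factors fixed in a list, 15 were listed, and 6 rose, 6 fell and 3 did not pass. LTN1, a ubiquitin ligase of stalled ribosomes, rose by 0.33, LARP4, a poly(A)-associated factor, by 0.25, and ABCE1, which splits ribosomes after termination, by 0.21 on the log2 scale. GIGYF1, part of a translational repressor, ZNF598, which senses collided ribosomes, and FXR2, an RNA-binding relative of FMR1, had log2 fold changes of -0.22, -0.22 and -0.20. Of 4 listed mitochondrial translation factors 2 rose, GFM1 (0.24), an elongation factor, and MRRF (0.17), the recycling factor. TUFM, the mitochondrial counterpart of eEF1A, fell by 0.15 on the log2 scale.

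Enzymes that modify the factors or the transfer RNAs were mixed, beside 28.8% that rose and 35% that fell among all listed genes. Of 3 listed enzymes for diphthamide on eEF2 or hypusine on eIF5A, 2 fell. These were DOHH (-0.28), which completes hypusine, and DPH2 (-0.20), which acts in diphthamide synthesis. The third, DHPS, which starts hypusine, averaged 33.8 counts in ACh and 56.8 in Control and did not pass. Of 13 listed genes for transfer RNA charging and modification 2 rose, 4 fell and 7 did not pass. ADAT3, of the wobble adenosine deaminase, had a log2 fold change of -0.50, and CTU1 and CTU2, which together thiolate wobble uridines, of -0.30 each. DTD2, a proofreading deacylase, and TRMT10C, of mitochondrial transfer RNA processing, rose by 0.31 each.

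Signalling genes that control translation also went both ways, as did all listed genes, of which 28.8% rose and 35% fell. Of 8 listed genes of mTORC1 signalling 4 fell and 2 rose. MLST8, a shared mTOR subunit, AKT1S1, an mTORC1 inhibitor, and TSC2, a brake on mTORC1, had log2 fold changes of -0.23, -0.21 and -0.15, while RICTOR, of mTORC2, and SESN3, a sestrin, rose by 0.29 and 0.19. Of 12 listed genes of ATF4 and the integrated stress response, the program that follows eIF2 phosphorylation, 8 fell and 2 rose. SLC1A5, a glutamine transporter, TRIB3, a pseudokinase induced by ATF4, and PHGDH, of serine synthesis, had log2 fold changes of -0.23, -0.21 and -0.19. SLC7A11, a cystine transporter, and PPP1R15B, a partner of the eIF2 phosphatase, rose by 0.20 and 0.15. ATF4 itself, ASNS and DDIT3 were not in the table. The median log2 fold change was -0.17 for this list and -0.14 for the mTORC1 list, against -0.10 over all listed genes, and their median GC contents were 55% and 55.5%, against 50.9% over all listed genes. After removal of the GC trend the medians were -0.02 for the ATF4 list and 0.00 for the mTORC1 list, and 0 of the 10 and 0 of the 6 calls kept their sign and limit by limma (1 and 0 at an unadjusted p under 0.05).

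**Figure D5:**
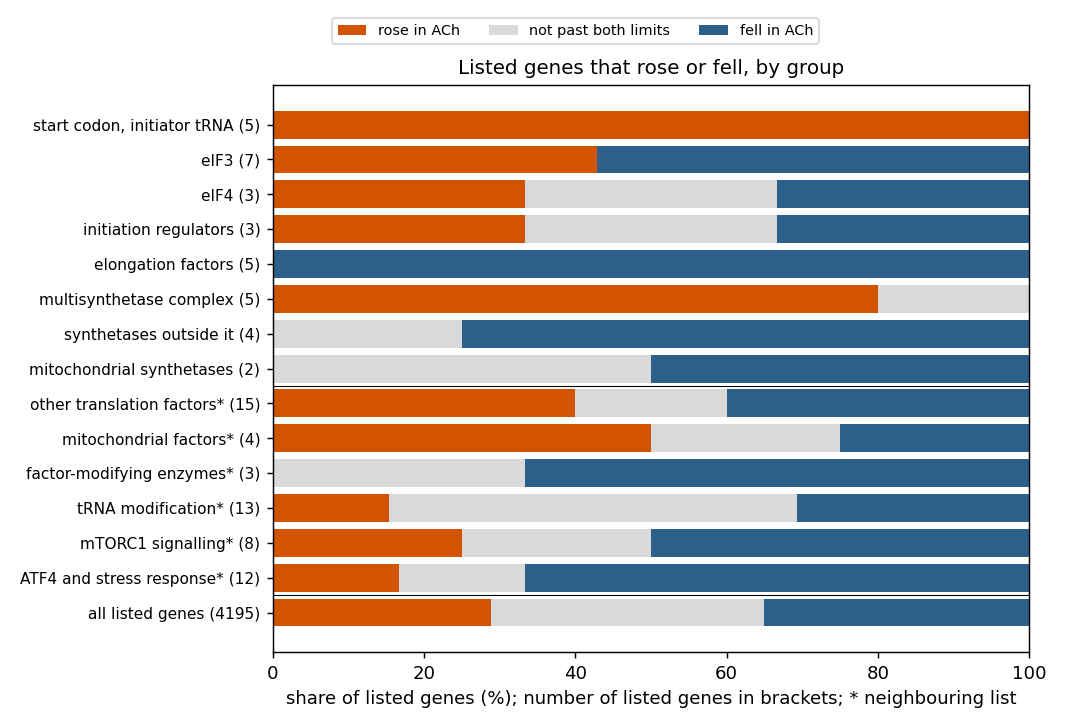
Share of listed genes that rose, did not pass both limits or fell in ACh (horizontal axis, %), by role, with the number of listed genes in brackets. The upper block holds the translation factors and synthetases without EEF2K (rose), EIF6 (did not pass) and EIF4A3 (fell). The middle block holds the neighbouring lists, and the bottom bar all 4195 listed genes, of which 28.8% rose and 35% fell.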

How the data were processed

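RNA of 6 KYSE30 libraries had been sequenced after a SMARTer mRNA-seq preparation, per the labels' protocols. Bowtie 0.12.2 is named in the submitters' processing notes beside mm8 and mm10, which are mouse builds, but 4183 of the 4195 gene IDs are human, so coordinates are printed as deposited. Neither counting tool, human build nor strand use is stated in these sources. The deposited values are a signal, read counts divided by one factor per library, and every value was a whole multiple of one step per library within 0.01 of a step. Fewer than 100 values per Control library lay at or under 20 steps, so reads were not rebuilt and no count test was run. If a step is 1 read, the factors were 0.884 to 0.954 in ACh and 0.986 to 1.30 in Control. The log2 fold changes and p-values of the authors' comparison are as deposited, per the file headers. Their adjusted p-values imply 11193 tests.

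A limma-trend model (limma 3.58.1 in R 4.3.3) was fitted to log2(value + 1) with a term for group alone, two-sided, with Benjamini-Hochberg adjustment over all listed genes and no filter on low values. Fold changes are on this scale, which understates changes of low genes. A call also needed the authors' adjusted p under 0.05, because limma alone calls 99.6% of a table selected for differences. Both tests use the same libraries, so neither is independent support for the other. Simulated data for ACh against Control held 4195 genes, most of them without a planted change. Limma recovered 85 of 100 planted changes of 15% and 100 of 100 of 1.5-fold, with 8 false calls. The simulation had no counterpart of the authors' limit, and its genes were not selected for differences. Its rates therefore do not describe the reported calls. GC content was that of the longest coding transcript of the same mouse symbol in GENCODE M21. Its trend was fitted per library on the listed genes with a value, with a span of 0.3, and removed. Summaries and plots were made in Python 3.11.15 with NumPy 2.4.6, pandas 2.3.3, Matplotlib 3.10.9 and SciPy 1.17.1. The members and lists were chosen with earlier results of these data known, and all members could be named, with values per library for the largest changes and the most abundant genes of each role, the kinases and 4E-BP1. From each neighbouring list up to 3 called genes per direction were named.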

Additional observations from a re-analysis of the deposited data

How the results depend on the processing

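With a pseudocount of 0.1 or scaling by a trimmed mean of M values, 15 members rose and 16 fell, the same 31 genes as reported. The deposited table gave the same 31 by its adjusted p alone, and limma alone called all 37, among them 2 regulators that were higher, 2 mitochondrial synthetases that were lower and 7 higher genes of transfer RNA modification. Leaving out each library in turn kept 14 to 15 rises and 15 to 16 falls, and the calls lost were those of EEF1A1 and EIF3E. Every limma refit here kept the authors' adjusted p, taken from all libraries, as a fixed limit. Limma alone calls 99.6% of a table selected on these same libraries, so calls that were kept say little about stability. Adjustment over 11193 tests removed EEF1A1. Replicates share numbers in the labels, but deviations of same-numbered libraries correlated at 0.08, 0.06 and 0.05 over all listed genes and at 0.17, 0.15 and 0.35 over genes at or above the median count, and each library correlated best with its own number. The value over all listed genes was used, so the numbers were not taken as pairs, although the more abundant genes would have met the limit of 0.1. With a replicate block 15 rose and 16 fell.

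A lower-quartile filter removed 3 members, turned the median of all members from -0.07 to 0.02 and left 1 rise and 1 fall in the transfer RNA modification list. Equal totals over the listed genes turned that median to 0.01 and EIF4H to 0.01, moved the medians of initiation to 0.19, of cytosolic synthetases to 0.22 and of elongation genes to -0.13, and reduced the falls to 10 members, 2 initiation genes, 5 ATF4, 2 mTORC1, 3 messenger-binding and 0 mitochondrial factors.

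With the GC trend removed 2 members were higher and 6 lower, with 1 and 2 among initiation genes, 3 falls among elongation genes, 0 rises of regulators, 0 and 0 among cytosolic synthetases and 0 falls of mitochondrial synthetases. The ATF4 list then held 1 rise (CEBPB, which had fallen at the deposited values) and 0 falls, the messenger-binding list 1 and 0, and the mTORC1, mitochondrial factor, factor-modifying and transfer RNA lists 0 (by limma with the authors' limit). At an unadjusted p under 0.05 with the sign kept these lists held 0, 1, 0 and 2 of their calls, and cytosolic synthetases 1, regulators 1 and mitochondrial synthetases 0. The medians were -0.03 for initiation, -0.03 for cytosolic synthetases and -0.10 for elongation genes. Values with the opposite sign were EIF3E at -0.13, EIF4G2 at -0.08, EIF2S1 at -0.07, EIF3M at -0.06, EIF5 and EIF2AK2 at -0.05, EIF1AX, DARS and LARS at -0.04, EPRS and FARSB at -0.03 and IARS at -0.00077, and EIF4H at 0.08, EIF6 at 0.07, EIF3B at 0.04, EIF4G1 and AARS at 0.02 and EIF3I and EIF4A3 at 0.01.

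With a minimum change of 15%, 1 member rose and 6 fell, with 1 and 1 among initiation genes, 0 and 3 among elongation genes, 0 rises of cytosolic synthetases, 0 of regulators either way and 0 falls of mitochondrial synthetases. The lists then held 0 rises and 2 falls (ATF4), 1 and 2 (mTORC1), 3 and 3 (messenger-binding), 1 and 0 (mitochondrial factors) and 1 fall (factor-modifying). Medians were recomputed under each alternative only for classes of at least 5 genes. Count tests with edgeR and DESeq2 were not run, since reads were not rebuilt. Depth is unknown, and the call of a low gene such as SARS2 is limited by it.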

Other observations

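Pseudogenes of 2 initiation factors were in the table and lay outside the set. EIF4BP3, a processed pseudogene of EIF4B, had 93.3, 72.4 and 106 normalised counts in ACh libraries, against 40.5, 63.9 and 39.9 in Control libraries, and did not pass both limits, with a log2 fold change of 0.92. EIF4HP1, a processed pseudogene of EIF4H, rose by 0.49 on the log2 scale, with 143, 121 and 170 in ACh libraries, against 98.7, 94.4 and 112 in Control libraries, while EIF4H itself was lower in every ACh library and did not pass.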
